A study of Rattus norvegicus with 6 samples.

Results

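The genes described here encode 3 vasoactive systems of the vessel wall, namely the endothelin, nitric oxide and prostacyclin pathways. The 10 genes were chosen by what their products do, with earlier results of these data known. All 10 were found by symbol among the 17833 genes of the expression table. They are Edn1, Ece1, Ednra and Ednrb for endothelin, Nos3, Gucy1a1, Gucy1b1 and Pde5a for nitric oxide, and Ptgis and Ptgir for prostacyclin. All 10 passed the filter on low values that left 15150 genes for testing.

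RNA-seq of whole pulmonary vein (PV) tissue compared neonatal rats after bilateral pulmonary vein banding (BPVB) with sham-operated rats, 3 libraries in each group. All rats were wild type, of the strain labelled SD, and had surgery at postnatal day 1, and the tissue, PV of the right upper lobe, was taken at postnatal day 21. In the BPVB group a suture left a fixed narrowing on the PVs of both sides, and in the sham group the chest was opened and a suture was placed and withdrawn without narrowing. The sample labels and the study's methods name the pulmonary vein as the banded vessel, whereas the design text of the series abbreviates the operation as PAB. The libraries were made from separate rats that the study drew at random.

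Endothelin-1 is a peptide released mainly by endothelial cells that constricts vessels through the ETA receptor on smooth muscle, while the ETB receptor on endothelium clears the peptide and triggers release of nitric oxide and prostacyclin. Nitric oxide activates soluble guanylyl cyclase in smooth muscle, and the cyclic GMP it makes relaxes the vessel until phosphodiesterases, PDE5 among them, break it down. Prostacyclin relaxes vessels through its receptor IP, which raises cyclic AMP, and drugs for pulmonary arterial hypertension act on all 3 pathways.

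Under banding, 5 of the 10 genes rose and 3 fell at an adjusted p under 0.05 (limma, two-sided, on log2 of FPKM + 0.5, Benjamini-Hochberg over all genes tested), and the other 2 were not called. Over all genes tested, 31.5% were called, 17.2% higher and 14.3% lower. With 1 library left out, 5 to 7 of the 10 genes were called against 8, and 3925 to 4109 of all genes against 4775. FPKM are fragments scaled by gene length and library total. The genes that fell were Edn1 (endothelin-1), Ece1 (the enzyme that cuts its precursor) and Nos3 (endothelial nitric oxide synthase). The genes that rose were Ednrb, Gucy1a1, Pde5a, Ptgis and Ptgir, which encode the ETB receptor, a guanylyl cyclase subunit, PDE5, prostacyclin synthase and the prostacyclin receptor. The changes were small, with fitted log2 fold changes from -0.38 for Nos3 to 0.63 for Ptgir, and 0 of the 10 were differentially expressed genes (DEGs, adjusted p under 0.05 and absolute log2 fold change above 1). By limma-voom on recovered fragments the number of DEGs among them was also 0, beside 6.98% of all genes that limma-voom tested. By limma, 9 of the 10 had an unadjusted p under 0.05, beside 42.0% of all genes tested.

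Over all genes tested, 3.27% were DEGs. The BPVB and sham values did not overlap for any of the 10 genes, 7 of them higher and 3 lower, beside 45.6% of all genes tested (25.2% higher and 20.5% lower). The median log2 fold change was 0.15 over the 10 genes and 0.02 over all genes. Ptgir was the gene with the largest change, and 9.18% of all genes tested had a larger absolute log2 fold change than Ptgir. The share with a larger change was 21.8% for Nos3, 23.6% for Ptgis, 24.9% for Ece1 and 27.8% for Ednrb.

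**Figure D1:**
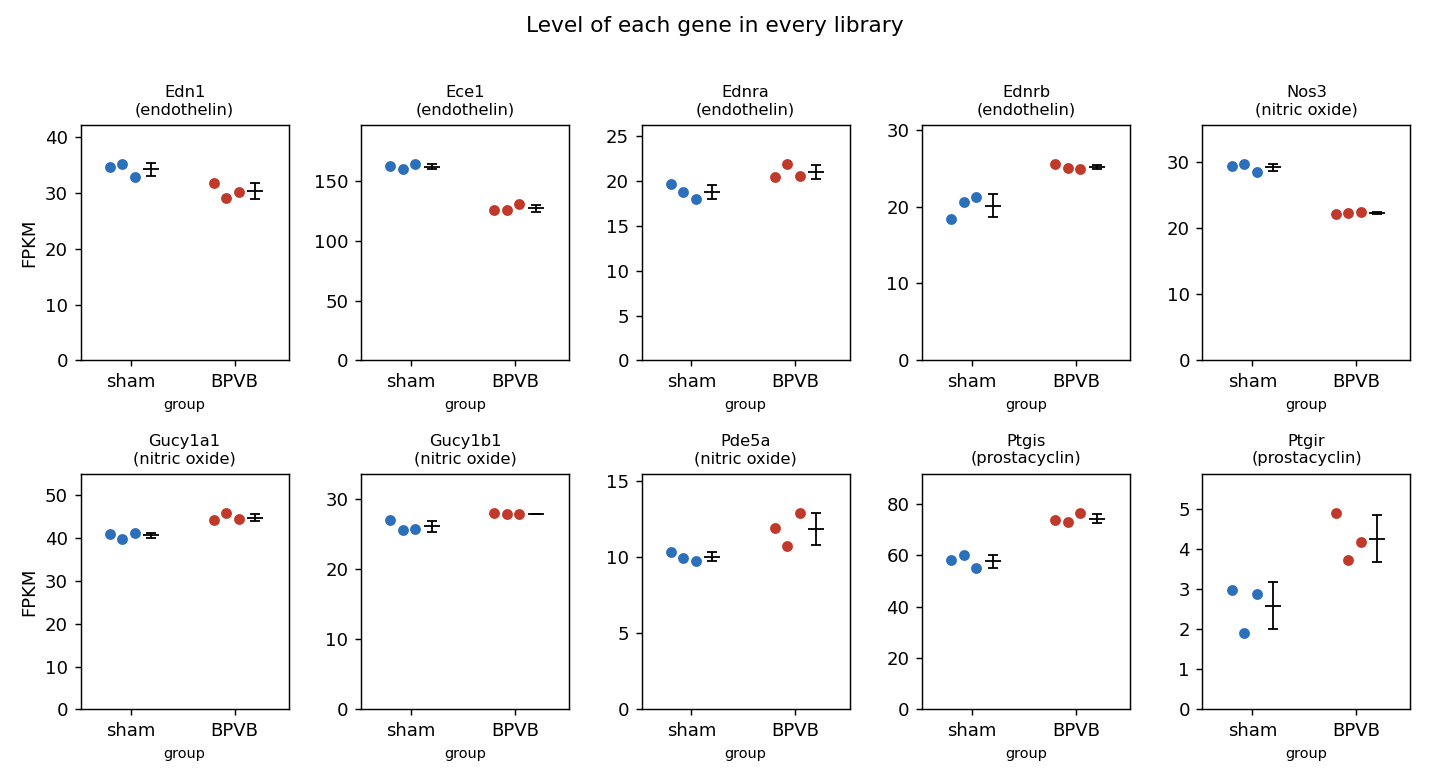
FPKM (y axis, from 0) of the 10 genes in each of the 3 sham libraries (blue) and the 3 BPVB libraries (red), with the group mean and SD in black beside the points. The BPVB points lie below the sham points for Edn1, Ece1 and Nos3 and above them for the other 7 genes.

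**Figure D2:**
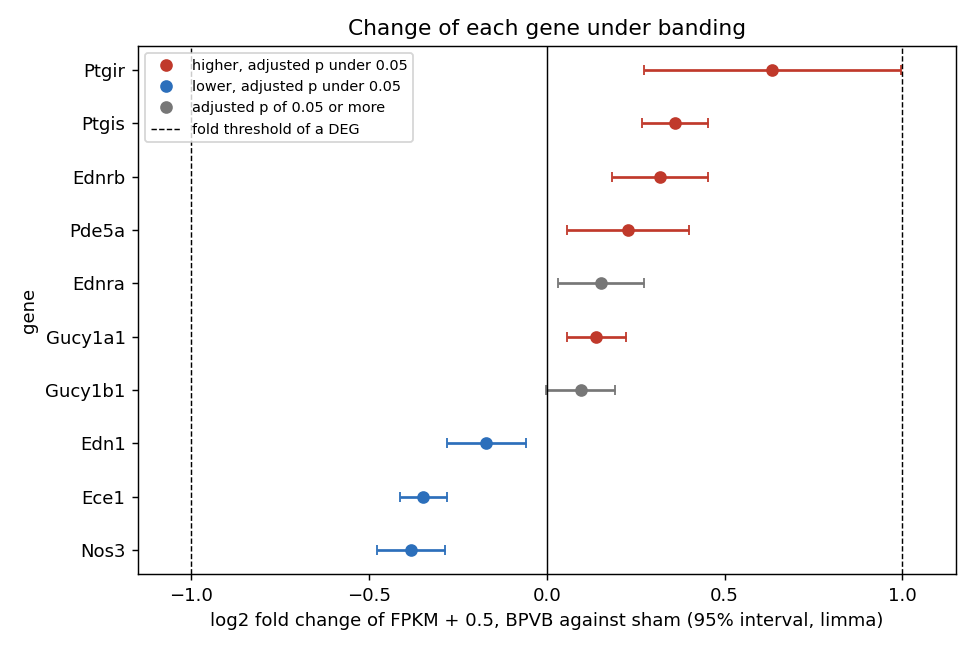
Fitted log2 fold change of FPKM + 0.5, BPVB against sham, with its 95% interval from limma for each of the 10 genes, and dashed lines at the fold threshold of a DEG. Points lie between -0.38 (Nos3) and 0.63 (Ptgir), and the interval of Gucy1b1 is the only one of the 10 that reaches 0.

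The promoters of the 3 genes that fell are shown because these genes moved in the same direction. The letters are RefSeq's for build GRCr8, 5′ to 3′ on the strand of the gene and ending at the base before the gene, from chr17:22666688-22666937 on the minus strand for Edn1, chr5:155360781-155361030 on the plus strand for Ece1, and chr4:11706605-11706831 on the minus strand for Nos3. For Nos3 the window has 227 bases, since 23 of the 250 lie inside the annotated gene. Capitals mark matches, on either strand, to any of 5 short motifs. TATAAA is the core of a TATA box, and AGATAA is a site that GATA factors are known to bind. The letters CCACCC are typical of KLF factor sites, while GGGCGG is known as the GC box, and AGGAAG is the form of the ETS factor site searched here. The motifs were searched separately, and none of the matches shown overlaps another.
Edn1: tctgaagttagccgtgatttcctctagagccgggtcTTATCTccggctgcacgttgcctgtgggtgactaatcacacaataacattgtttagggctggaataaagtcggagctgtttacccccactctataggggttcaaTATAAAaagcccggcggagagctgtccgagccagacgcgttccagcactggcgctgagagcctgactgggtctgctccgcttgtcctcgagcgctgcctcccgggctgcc
Ece1: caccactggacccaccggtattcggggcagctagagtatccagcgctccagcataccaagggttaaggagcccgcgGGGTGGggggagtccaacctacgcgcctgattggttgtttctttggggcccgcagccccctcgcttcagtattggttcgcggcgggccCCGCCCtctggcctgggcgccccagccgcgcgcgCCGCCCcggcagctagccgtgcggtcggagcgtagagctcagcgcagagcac
Nos3: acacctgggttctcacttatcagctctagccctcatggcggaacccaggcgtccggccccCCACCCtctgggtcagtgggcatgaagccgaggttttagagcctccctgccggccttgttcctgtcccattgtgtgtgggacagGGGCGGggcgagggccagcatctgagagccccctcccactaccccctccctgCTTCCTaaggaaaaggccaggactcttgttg
No motif was found in all 3 windows. Edn1 had a match to TATAAA 110 bases and a match to the GATA site 214 bases before the gene. Ece1 had GC boxes 86 and 52 bases before the gene and a KLF site 174 bases before it. Nos3 had a KLF site 167 bases, a GC box 83 bases and an ETS site 31 bases before the gene. Among the 33469 rat promoters of the same RefSeq table, the 250 bases before the start held TATAAA in 12.9%, AGATAA in 10.3%, CCACCC in 26.1%, GGGCGG in 30.5% and AGGAAG in 29.5%. Of the 10 genes, 9 had a promoter in that table (Ptgis had none), and 6 of these 9 held GGGCGG, 5 AGGAAG, 2 CCACCC, 1 TATAAA and 1 AGATAA. No binding or methylation was measured, so a match is only a match of letters.

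The tissue label was checked against markers, and the levels of other cell types moved with the groups. Markers of endothelium, smooth muscle and the cardiac muscle sleeve of the PV were present in every library. Markers are counted as risen or fallen at an adjusted p under 0.05 by limma. Over all genes tested, 17.2% were higher and 14.3% lower. Of 8 endothelial markers 0 rose and 5 fell, with a summed level of 1034 to 1048 FPKM in the BPVB group and 1144 to 1154 in the sham group. Of 8 smooth muscle markers 1 rose and 5 fell, with sums of 3982 to 4037 and 4318 to 4399. All 8 alveolar epithelial markers rose (583 to 633 against 61.7 to 64.9 FPKM), as did 5 of 6 macrophage markers (621 to 647 against 188 to 194). Of 6 airway markers only 3 could be tested, and Scgb1a1, Epcam and Cdh1 rose. The level summed over all 6 was 6.45 times as high, at most 35.2 FPKM against at most 5.48. The other 3 were nearly absent, with at most 1 fragment per library for Scgb3a2 and Foxj1 and 4 for Cyp2f4. Scgb3a2 and Foxj1 had 0 fragments in every BPVB library. Of 8 cardiomyocyte markers 3 rose and 5 fell (12124 to 12578 against 17186 to 17574), and 4 of 6 alveolar capillary markers fell with 0 higher (116 to 121 against 169 to 172). Fibroblast markers showed 3 higher and 2 lower of 6 (5189 to 5221 against 4703 to 4712 FPKM), pericyte markers 1 and 1 of 6 (797 to 816 against 890 to 904), and Schwann cell and nerve markers 1 and 4 of 6 (42.2 to 43.9 against 104 to 109). The part of these shifts in the results on the 10 genes was not tested beyond the ratios given further on, and in whole tissue fewer cells of a type and less RNA per cell cannot be told apart. Library totals were 26078189 to 29725808 fragments in the BPVB group and 23439506 to 23821184 in the sham group, and the 10 highest genes held 7.11% to 7.26% of the fragments.

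In both groups Ece1 had the highest level per length of the 10 genes, followed by Ptgis, Gucy1a1 and Edn1, and Pde5a and Ptgir had the lowest. In the sham group Nos3 came next after Edn1, ahead of Gucy1b1, Ednrb and Ednra. In the BPVB group Gucy1b1 and Ednrb stood ahead of Nos3. Neighbors in the order did not overlap in their 3 libraries, with the exception of Ednrb and Ednra in the sham group.

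Endothelin-1 mRNA was lower in the banded veins. Edn1 was at 31.8, 29.1 and 30.1 FPKM in the 3 BPVB libraries and at 34.6, 35.1 and 32.9 FPKM in the 3 sham libraries, from 1055 to 1242 fragments per library. All BPVB libraries lay below all sham libraries. The mean fell by 11.3%, from 34.2 ± 1.17 to 30.3 ± 1.37 FPKM (SD, n = 3 each), with a log2 fold change of -0.17 ± 0.05 (SE) and an adjusted p of 0.027 by limma. The call of Edn1 was lost without BPVB replicate 2 (adjusted p 0.085 by limma), BPVB replicate 3 (0.072), sham replicate 1 (0.078) or sham replicate 2 (0.085), after rescaling to TPM (0.070) and by limma-voom on recovered fragments (0.060).

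Ece1, the membrane protease that turns big endothelin-1 into the active peptide, fell further. The 3 levels were 126, 126 and 131 FPKM in the BPVB group and 163, 160 and 164 FPKM in the sham group. The BPVB values were close to each other and well below the lowest sham value. The mean fell by 21.5%, from 162 ± 2.05 to 127 ± 2.94 FPKM (SD, n = 3 each), with a log2 fold change of -0.35 ± 0.03 (SE) and an adjusted p of 3.2e-05 by limma. With 15565 to 18549 fragments per library, Ece1 was the most deeply counted of the 10 genes.

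The endothelin receptors had levels above those of the sham group, and the ETB receptor alone of the pair passed the test. Ednrb, the ETB receptor, was at 25.5, 25.0 and 24.9 FPKM under banding, compared with 18.4, 20.6 and 21.3 FPKM after sham surgery. All BPVB values were above the highest sham value, and the spread was wider in the sham group, where replicate 1 was the lowest. Its mean was 25.1 ± 0.298 against 20.1 ± 1.51 FPKM (SD, n = 3 each), or 1.25 times as high, with a log2 fold change of 0.32 ± 0.06 (SE) and an adjusted p of 0.0036 by limma.

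Ednra, the ETA receptor that carries the constrictor signal in smooth muscle, was at 20.5, 21.9 and 20.6 FPKM under banding and at 19.6, 18.7 and 18.0 FPKM after sham surgery. The groups did not overlap, but the gap between the lowest BPVB and the highest sham library was narrow. The log2 fold change was 0.15 (95% interval 0.03 to 0.27) with an adjusted p of 0.056 by limma, so Ednra was not called. It was called after rescaling to TPM (adjusted p 0.030 by limma) and by limma-voom on recovered fragments (0.012). The balance between the receptors did not separate the groups. Ednrb made up 55.4%, 53.4% and 54.8% of the summed FPKM of both receptors in the BPVB group and 48.4%, 52.4% and 54.1% in the sham group, with an exact permutation p of 0.2.

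Nos3, the endothelial enzyme that makes nitric oxide from arginine, had the largest fall of the 10 genes. The BPVB libraries had 22.0, 22.2 and 22.4 FPKM, and the sham libraries had 29.3, 29.6 and 28.5 FPKM. The libraries of each group were tight and far apart from those of the other. The mean fell by 23.7%, from 29.1 ± 0.587 to 22.2 ± 0.171 FPKM (SD, n = 3 each), with a log2 fold change of -0.38 ± 0.04 (SE) and an adjusted p of 1.6e-04 by limma.

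Soluble guanylyl cyclase, the receptor of nitric oxide, is a dimer of an alpha and a beta subunit. Its alpha subunit gene Gucy1a1 was at 44.1, 45.7 and 44.4 FPKM in the BPVB group and at 40.8, 39.8 and 41.1 FPKM in the sham group. The BPVB libraries were all higher, with a mean 1.10 times that of the sham group, a log2 fold change of 0.14 ± 0.04 (SE) and an adjusted p of 0.019 by limma. The call was lost without BPVB replicate 2 (adjusted p 0.064 by limma) or sham replicate 2 (0.063). The beta subunit gene Gucy1b1 was at 28.0, 27.9 and 27.9 FPKM and at 27.1, 25.6 and 25.7 FPKM, without overlap. Its log2 fold change of 0.10 had a 95% interval from -0.0018 to 0.19 and an adjusted p of 0.13 by limma, and no alternative brought it under 0.05. Gucy1a1 made up 61.6% ± 0.461 of the summed FPKM of both subunits under banding and 60.8% ± 0.706 after sham surgery (SD, n = 3 each), values that overlapped (exact permutation p 0.3).

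Pde5a encodes PDE5, the cyclic GMP-degrading enzyme that sildenafil inhibits. Its levels were 11.9, 10.8 and 12.9 FPKM with banding and 10.4, 9.93 and 9.79 FPKM without it. BPVB replicate 2 lay just above the highest sham library, and replicate 3 was the highest. The mean was 11.9 ± 1.06 against 10.0 ± 0.304 FPKM (SD, n = 3 each), with a log2 fold change of 0.23 ± 0.08 (SE) and an adjusted p of 0.047 by limma. This was the call nearest to the threshold. It was lost when BPVB replicate 1 (adjusted p 0.11 by limma), BPVB replicate 3 (0.15), sham replicate 1 (0.071), sham replicate 2 (0.11) or sham replicate 3 (0.12) was left out. Of all 16 alternatives in processing and libraries, 7 kept the call of Pde5a.

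Both prostacyclin genes rose. Ptgis, which encodes prostacyclin synthase, was at 73.7, 73.0 and 76.4 FPKM in the BPVB group and at 58.2, 60.1 and 55.1 FPKM in the sham group. The lowest BPVB library was well above the highest sham library. The mean was 74.4 ± 1.78 against 57.8 ± 2.52 FPKM (SD, n = 3 each), or 1.29 times as high, with a log2 fold change of 0.36 ± 0.04 (SE) and an adjusted p of 2.0e-04 by limma.

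Ptgir, the gene of the prostacyclin receptor IP, had the largest fold change and the lowest level of the 10. Its levels were 4.88, 3.72 and 4.16 FPKM in the BPVB libraries, from 177, 132 and 168 fragments, and 2.97, 1.91 and 2.87 FPKM in the sham libraries, from 96, 61 and 93 fragments. Sham replicate 2 was the lowest and BPVB replicate 1 the highest, and the groups did not overlap. The mean was 4.25 ± 0.583 against 2.58 ± 0.583 FPKM (SD, n = 3 each), or 1.65 times as high, with a log2 fold change of 0.63 ± 0.16 (SE) and an adjusted p of 0.015 by limma. Without BPVB replicate 1 the log2 fold change was 0.54 and the adjusted p 0.054 by limma.

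Since 5 of 8 markers each of endothelium and smooth muscle fell in the banded veins, each of the 10 genes was also set against the mean log2 level of the 8 markers of the cell type that mainly carries its product. Edn1, Ece1, Ednrb and Nos3 were set against endothelial markers and the other genes against smooth muscle markers, although Ednrb and Ptgis are not limited to one cell type. The difference of the log2 ratio between the groups was tested by exact permutation, for which 3 libraries against 3 allow no p below 0.1. In all, 15 ratios were compared, and none can pass a threshold of 0.05.

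Relative to the endothelial markers, Edn1 did not separate the groups. Its log2 ratio was -1.47, -1.59 and -1.53 under banding and -1.50, -1.49 and -1.55 after sham surgery, a difference of -0.02 (exact permutation p 0.7, adjusted 0.7). The log2 ratio to the endothelial markers changed by -0.19 for Ece1, -0.23 for Nos3 and 0.47 for Ednrb, each without overlap between the groups (exact permutation p 0.1, adjusted 0.15). Relative to the smooth muscle markers, all 6 genes were higher without overlap, by 0.19 for Gucy1b1, 0.23 for Gucy1a1, 0.25 for Ednra, 0.32 for Pde5a, 0.46 for Ptgis and 0.73 for Ptgir (exact permutation p 0.1, adjusted 0.15). The mean log2 level of the markers changed by -0.15 for endothelium and -0.09 for smooth muscle. Over all genes tested, the median ratio to the endothelial markers was higher under banding by 0.18 on the log2 scale, with 45.4% of genes higher and 9.69% lower without overlap. The median ratio to the smooth muscle markers was higher by 0.12, with 37.1% of genes higher and 12.9% lower without overlap. The groups did not overlap in 10 of the 15 ratios.

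**Figure D3:**
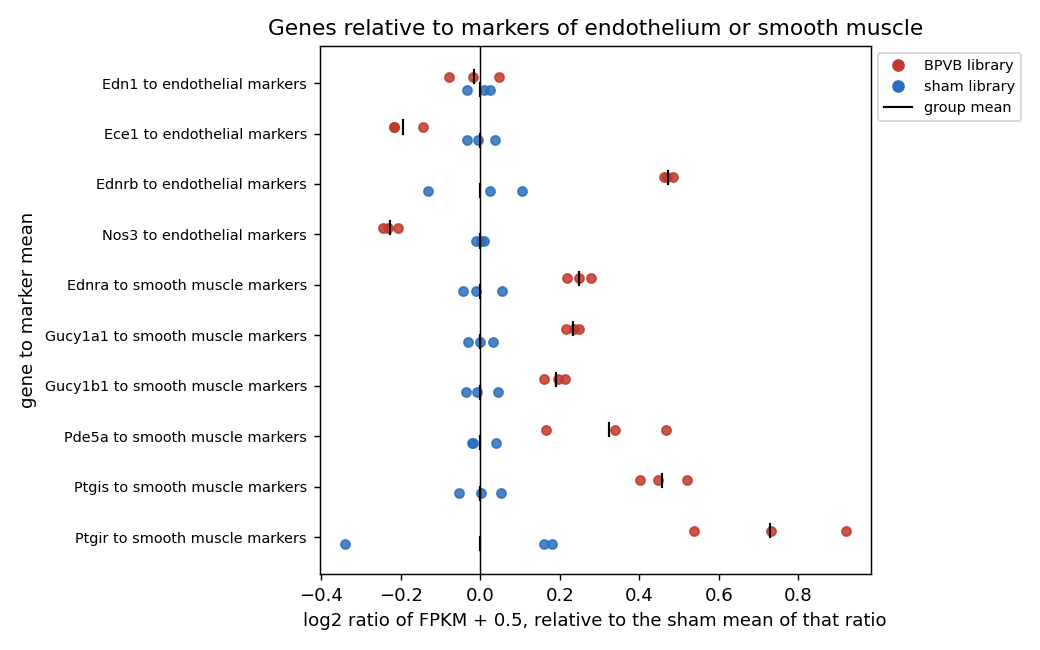
Log2 ratio of each gene (FPKM + 0.5) to the mean of 8 endothelial or 8 smooth muscle markers, given relative to the sham mean of that ratio, for the 3 BPVB libraries (red) and 3 sham libraries (blue), with black lines at the group means. Edn1 overlaps between the groups, Ece1 and Nos3 lie lower under banding, and the other 7 genes lie higher.

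Among the 10 genes themselves, Edn1 was higher relative to Nos3, with a log2 ratio of 0.52, 0.38 and 0.42 under banding against 0.23, 0.24 and 0.20 after sham surgery. The difference of 0.21 came without overlap (exact permutation p 0.1, adjusted 0.15). The other ratios between them overlapped between the groups. The log2 ratio of Ednrb to Ednra differed by 0.16 (exact permutation p 0.2, adjusted 0.25), Pde5a to Gucy1b1 by 0.13 (0.2, adjusted 0.25), Gucy1a1 to Gucy1b1 by 0.04 (0.3, adjusted 0.35) and Ptgir to Ptgis by 0.27 (0.5, adjusted 0.54).

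The wider pathways were read from a list of 64 further genes of endothelin, nitric oxide, cyclic GMP and prostanoid biology, of which 60 were tested. In this list 14 genes rose, 9 fell and 37 did not pass the test, beside the 31.5% called over all genes tested, and the median log2 fold change was 0.07. The number called was 14 without sham replicate 3, with 9 higher and 5 lower. Hpgd was the only DEG of the list by limma. Edn2 was not found in the expression table, and Gucy1b2, Prkg2 and Ptgdr were under the filter on low values. Of the 60 genes, 3 passed that filter only through the BPVB group, namely Nppc, Ptges and Ptgdr2, and Ptges alone of these was called. Nppc and Ptgdr2 are named because their values were seen.

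Of the other endothelin genes, 0 of 3 were called by limma, 0 had an unadjusted p under 0.05, and 0 were called by limma-voom. The shares over all genes tested were 31.5%, 42.0% and 36.9%, so 0 of 3 genes says little. Edn3, the endothelin-3 gene, was low at 0.478, 0.765 and 0.924 FPKM under banding and 1.10, 0.907 and 0.357 FPKM after sham surgery, which overlapped (log2 fold change -0.04, 95% interval -0.60 to 0.52), and its sign turned when single libraries were left out.

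Genes that supply nitric oxide split in direction, with 5 of 18 higher and 4 lower, beside 17.2% higher and 14.3% lower over all genes tested. Ass1, argininosuccinate synthase, which takes part in remaking arginine from citrulline, rose from 4.67, 4.63 and 4.41 FPKM in the sham libraries to 7.03, 8.33 and 7.68 FPKM in the BPVB libraries (log2 fold change 0.69 ± 0.09 SE, adjusted p 3.5e-04 by limma). Slc7a1, a cationic amino acid transporter that imports arginine, was 1.41 times as high (adjusted p 0.021 by limma), a call lost without BPVB replicate 1 (0.070), sham replicate 2 (0.064) or sham replicate 3 (0.052). Ddah2, which encodes an enzyme of the family that degrades the synthase inhibitor asymmetric dimethylarginine, fell by 0.32 ± 0.05 (SE) on the log2 scale (adjusted p 0.0010 by limma). The inducible synthase gene Nos2 was at 1.196, 1.22 and 1.24 FPKM under banding and 1.80, 1.73 and 1.63 FPKM after sham surgery (adjusted p 0.032 by limma), a call lost when any one of the 6 libraries was left out (adjusted p 0.057 to 0.094). The neuronal synthase gene Nos1 was at 0.219 to 0.518 and 0.240 to 0.450 FPKM, and was not called (adjusted p 0.97 by limma). Of the 3 synthase genes, Nos3 thus had the highest level per length in both groups.

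Of the cyclic GMP genes tested, 3 of 19 were higher and 4 lower by limma (17.2% and 14.3% over all genes tested), while limma-voom on recovered fragments called 4 higher and 9 lower of the same 19. Over all 15119 genes that limma-voom tested, it called 36.9%, 20.0% higher and 16.9% lower. Prkg1, the cyclic GMP-dependent kinase of smooth muscle, was at 11.4, 10.7 and 11.1 FPKM under banding against 8.22, 7.70 and 7.39 FPKM (log2 fold change 0.48 ± 0.07 SE, adjusted p 6.6e-04 by limma). Among the phosphodiesterases, Pde2a, which degrades both cyclic GMP and cyclic AMP, fell from 32.6, 32.8 and 31.9 FPKM to 21.5, 22.6 and 21.6 FPKM (log2 fold change -0.56 ± 0.04 SE, adjusted p 2.0e-05 by limma). Pde1b, a calcium-dependent phosphodiesterase gene, was 1.54 times as high (adjusted p 0.030 by limma), and the call was lost without BPVB replicate 1 (0.083), BPVB replicate 2 (0.083), sham replicate 1 (0.076) or sham replicate 3 (0.091). Abcc4, a transporter that exports cyclic nucleotides, fell by 0.48 ± 0.08 (SE) on the log2 scale (adjusted p 0.0019 by limma). Npr3, the clearance receptor of natriuretic peptides, was at 27.0 to 30.04 FPKM under banding and 27.0 to 29.1 FPKM after sham surgery, with a 95% interval of the log2 fold change from -0.08 to 0.17.

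Prostanoid genes had 6 of 20 higher, 1 of which was Ptges, and 1 lower by limma (17.2% and 14.3% over all genes tested), and 7 higher and 2 lower of the same 20 by limma-voom. The largest fitted log2 fold change, with a pseudocount of 0.5 that lowers the values of weakly expressed genes, was that of Hpgd, whose product inactivates prostaglandins, at 1.25, 1.82 and 2.48 FPKM under banding against 0.225, 0.990 and 0.749 FPKM (log2 fold change 1.06 ± 0.28 SE, adjusted p 0.021 by limma). Sham replicate 1 was far below the other sham libraries. The call of Hpgd was lost without BPVB replicate 2 (adjusted p 0.054 by limma) or BPVB replicate 3 (0.074). Ptgfr, the receptor of prostaglandin F, was 2.07 times as high, at 7.18, 7.73 and 7.57 FPKM against 4.06, 3.25 and 3.52 FPKM (adjusted p 9.1e-05 by limma). Pla2g4a, the phospholipase that frees arachidonic acid, was 1.52 times as high (adjusted p 1.7e-04 by limma). Alveolar epithelial and macrophage markers were higher in the same libraries, and their part in these changes was not tested.

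The cyclooxygenases stand upstream of Ptgis. Ptgs1 was at 15.6, 13.3 and 13.5 FPKM under banding and 16.0, 15.8 and 14.6 FPKM after sham surgery, which overlapped (log2 fold change -0.13, 95% interval -0.30 to 0.04). Ptgs2 was at 1.84, 2.66 and 1.97 FPKM and 2.78, 4.07 and 4.35 FPKM (log2 fold change -0.67 ± 0.18 SE, adjusted p 0.019 by limma). The call of Ptgs2 was lost without BPVB replicate 1 (adjusted p 0.062 by limma), BPVB replicate 3 (0.062), sham replicate 2 (0.067) or sham replicate 3 (0.070). Ptges, an inducible prostaglandin E synthase gene, was called higher (adjusted p 0.0065 by limma) but rested on 14, 9 and 20 fragments under banding and 2, 0 and 1 after sham surgery. Ptges passed the filter on low values only through the group where it was high, with a mean of 0.410 FPKM under banding and 0.0335 FPKM after sham surgery, so the call is not support for a change. Its ratio of 43 to 3 fragments, scaled by library total, was 12.3 with a 95% exact counting interval of 3.95 to 62.2, which covers counting error only. The interval comes from the same values, so it is not support for a change either. The thromboxane genes were not called. Tbxas1, thromboxane synthase, was at 0.836 to 0.896 FPKM under banding and 0.413 to 0.825 FPKM after sham surgery (adjusted p 0.23 by limma), and the receptor gene Tbxa2r was at 2.06 to 2.63 and 1.94 to 2.21 FPKM (adjusted p 0.27 by limma).

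**Figure D4:**
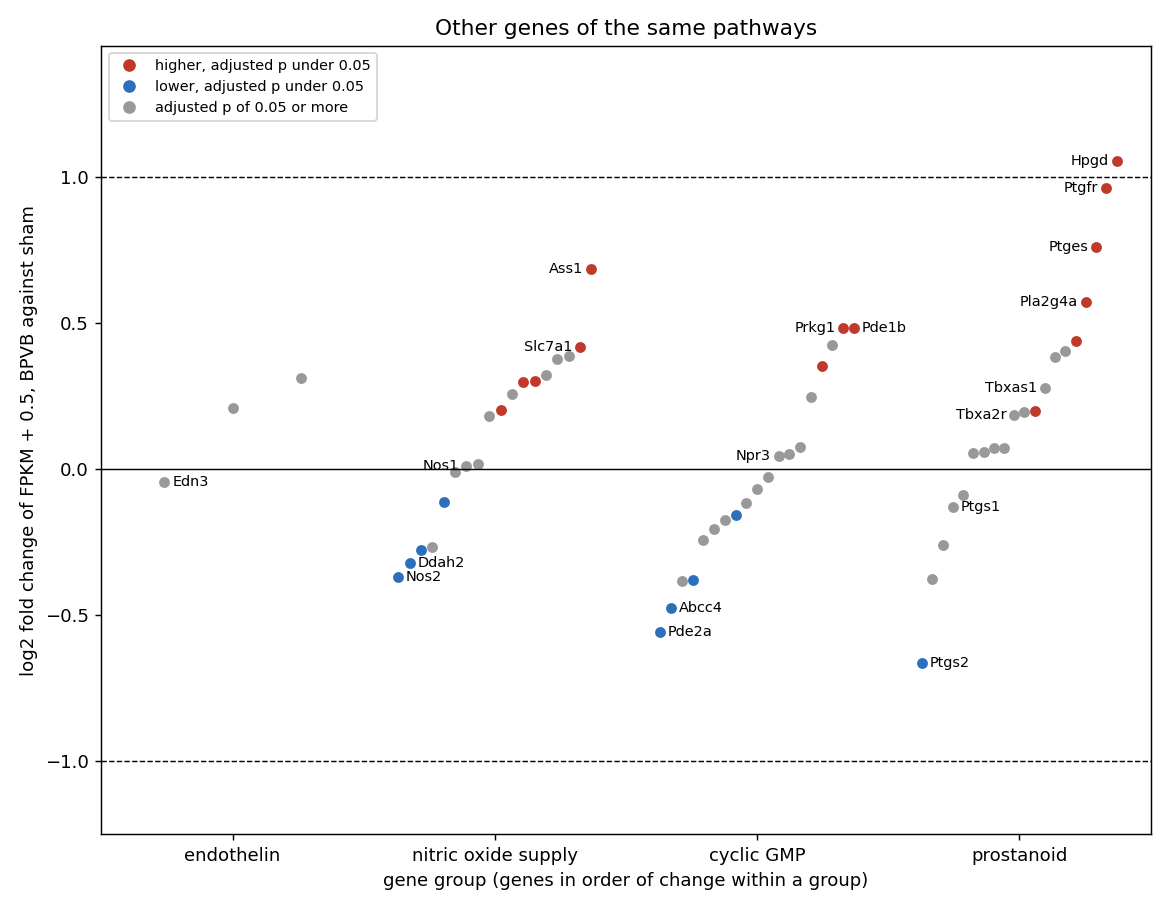
Fitted log2 fold change of FPKM + 0.5, BPVB against sham (y axis), of the 60 further genes tested, in order of change within 4 pathway groups (x axis), with red for higher and blue for lower at an adjusted p under 0.05 and dashed lines at the fold threshold of a DEG. Hpgd, at 1.06, is the only point beyond a dashed line, and the endothelin group has no colored point.

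For the 3 genes with the largest called changes, the genes with the most alike pattern over the 6 libraries were sought among 12157 genes with a mean of at least 1 FPKM, by the root mean square difference of log2 values after centering each gene on its own mean. For Nos3 these were Ndufv1 (0.016), Nptn (0.019) and Tcf4 (0.021). For Ptgis they were Gpc1 (0.027), Rab11b (0.028) and Hadha (0.029). For Ptgir they were Kif2c (0.098), Cbr3 (0.107) and Pygo1 (0.110), at larger distances than for Nos3 and Ptgis.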

How the data were processed

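Total RNA of PV tissue was extracted with TRIzol. The authors mapped 150 bp paired-end reads and deposited 1 FPKM value per gene and library. Per the labels, the submitters' processing notes name HISAT2 2.0.5, StringTie 1.3.3b, featureCounts 1.5.0-p3 and DESeq2 1.20.0, while the study's methods name HISAT and HTSeq-count. The library kit also differs between both sources, and the genome build and strand setting are not given in the sources used here. DESeq2 was not run on FPKM.

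Groups came from the sample labels, with library columns matched by name, and 0 columns were left unused. Genes whose mean FPKM reached 0.1 were compared on log2(FPKM + 0.5) with limma 3.58.1 in R 4.3.3 (lmFit, eBayes with trend). A pseudocount understates fold changes of low genes. Fragments were recovered from the whole-number steps of the deposited FPKM (100% of genes whole, within a relative tolerance of 1e-11), giving 23439506 to 29725808 per library. Tested on simulated data, recovery was right for 99.2% of 13111 genes with at least 50 fragments. In simulated BPVB against sham data (14963 genes), limma called 91 of 100 genes changed 2-fold and 17 of 100 changed 1.2-fold, and 17 of 45 changed 1.2-fold with at least 800 mean fragments. In the same simulated data it also called 12 genes that had not been changed. Ratios used exact permutation tests, with adjustment over the 15 ratios. Other steps ran in Python 3.11.15 (pandas 2.3.3, numpy 2.4.6, scipy 1.17.1), with plots by matplotlib 3.10.9.

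The 10 genes, the lists and the motifs were chosen with earlier results of these data known. All 10 genes were named. Of the wider list, each DEG, up to 4 called genes per pathway group by absolute log2 fold change, and Nos1, Nos2, Edn2, Edn3, Ptgs1, Ptgs2, Tbxas1, Tbxa2r, Npr3 and Prkg1 were named. Alternatives were other pseudocounts, filters and scalings, a replicate block, robust eBayes, limma-voom on the fragments, and leaving out each library.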

Additional observations from a re-analysis of the deposited data

How the results depend on the processing

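Over 16 alternatives none of the 10 genes changed sign. Ece1, Ednrb, Nos3 and Ptgis kept their calls in all 16, Ptgir in 15, Gucy1a1 in 14, Edn1 in 10 and Pde5a in 7. Gucy1b1 was called in none and Ednra in 2. The number of the 10 genes called was 8, and 5 to 7 when 1 library was left out (5 without sham replicate 2), with 3 to 4 higher (3 without BPVB replicate 1 or sham replicate 2) and 2 to 3 lower. Pde5a was also lost with no filter on low values (adjusted p 0.061 by limma), median-of-ratios scaling (0.070) and quantile normalization (0.067). The cause was not tested.

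Of the wider list, 14 to 19 genes were called when 1 library was left out (9 to 12 higher, 5 to 7 lower), against 23, while calls over all genes numbered 3925 to 4109, against 4775. By limma-voom 15 of the list were lower, 9 of them cyclic GMP genes, and calls over all genes numbered 5584. Its DEGs numbered 0 with a pseudocount of 1, quantile normalization, or without BPVB replicate 2 or 3, and 3 with a pseudocount of 0.1, TPM or limma-voom. All-gene DEGs numbered 325 with a pseudocount of 1, 901 with 0.1 and 1056 by limma-voom, against 496. The log2 fold change of Nos1 (0.01) turned to -0.062 with quantile normalization and -0.013 by limma-voom and ranged from -0.15 to 0.13 without single libraries, and that of Edn3 (-0.04) from -0.31 to 0.14, neither being called. Pde1b was lost with quantile normalization (adjusted p 0.070 by limma).

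Same-numbered libraries did not deviate together (correlations 0.014 to 0.025, although each library correlated best with its own number), so the numbers were not taken as pairs. With the replicate block, Pde5a (adjusted p 0.062 by limma) and Nos2 (0.069) lost their calls, and no other call among the 10 genes changed. Calls in the wider list went from 23 to 21 (13 higher and 8 lower).

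Ptgir rested on 61 to 177 fragments per library, and the other 9 genes on 819 or more. With 3 libraries per group a change of the size seen in Ednra or Gucy1b1 can be missed.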
